A study of Mus musculus with 8 samples.

Results

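The cytosolic ribosomal protein genes were the genes of the deposited count table whose symbol matched the naming pattern of large subunit (Rpl, Rplp) or small subunit (Rps) proteins, or was Rpsa. They made up 89 of 55291 genes, 53 of the large and 36 of the small subunit. By the GENCODE annotation and the list of paralogues, 77 were core genes, 6 were paralogues of a core gene and 6 were pseudogenes. At least 1 read was counted for 88 of the 89, and 86 passed the filter on low counts. Rps12l1 had 0 counts in every library, and Rpl10l and Rpl39l were too low for the test over all genes. All 50-base stretches of Rps12l1 (100%) also occur in other transcripts, Rps12 among them. How shared reads were assigned was not stated, so its 0 counts are not read as absence.

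RNA was sequenced from L-GMP, progenitors of the granulocyte-macrophage type that carry acute myeloid leukaemia in mice with the fusion oncogene MLL-AF9. The cells were sorted from bone marrow by the absence of lineage markers and Sca-1 and the presence of c-Kit, CD16/32 and CD34. The KO group (4 libraries) carried Dek fl/fl and MX1-Cre, and the FL group (4 libraries) carried Dek fl/fl without MX1-Cre; both carried MLL-AF9. MX1-Cre places the recombinase under an interferon-responsive promoter that is active in blood cells and in other tissues, and since only KO mice carried it, its effect cannot be told apart from that of Dek loss. DEK is a chromatin protein and histone chaperone. Age, the exons deleted and the number of animals behind each library were not stated, so p-values measure the spread between libraries, which may be technical.

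Each cytosolic ribosome is built from ribosomal RNAs and one copy of nearly every ribosomal protein, apart from the stalk proteins, which are present in several copies. The genes are transcribed at high rates in growing cells, and most of their mRNAs begin with a run of pyrimidines (the TOP motif, for terminal oligopyrimidine) through which mTOR and LARP1 control their translation. In human and mouse blood formation, reduced dosage of single ribosomal protein genes impairs red cell production and can activate p53.

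Library totals were 33941940 to 49736592 counts in KO and 44086524 to 58660705 in FL. Genes with at least 1 count numbered 30606 to 37801 in KO and 24125 to 26053 in FL, so the breadth of the libraries separated the groups as the genotype did. Dek, the targeted gene, had 21.2, 21.4, 31.0 and 16.7 CPM in KO and 129, 137, 163 and 178 CPM in FL (counts per 1e6, scaled by TMM factors), a log2 fold change of -2.75 (SE 0.19, edgeR adjusted p = 1.7e-05), with no overlap. Progenitor markers were present in all libraries (summed Mpo, Elane, Prtn3, Ctsg, Cebpa and Cebpe, 26680 to 31000 CPM in KO and 20400 to 41950 CPM in FL). Of 5 genes behind the sort, Kit and Ly6a (which encodes Sca-1) were called higher in KO and Cd34 and Fcgr3 lower, with Ly6a at 0.58 to 2.71 CPM in KO and 0.20 to 0.70 CPM in FL. Of 7 eosinophil markers, 6 were called higher in KO, and their sum was 262, 917, 1307 and 246 CPM in KO against 21.4, 106, 42.6 and 114 CPM in FL. The neutrophil sum reached 2452 CPM in KO replicate 3, against 166 to 369 CPM in the other KO libraries and 93.7 to 713 CPM in FL, and the erythroid sum was 3.93 to 38.7 CPM in KO and 2.33 to 4.36 CPM in FL. Mast cell and basophil markers summed to 29.4 to 55.0 CPM in KO and 89.6 to 229.9 CPM in FL (mostly Cpa3, at a mean of 5.03 CPM in KO and 132 CPM in FL, which was called lower, while Ms4a2 was called higher), monocyte and macrophage markers to 1663 to 1962 CPM in KO and 2886 to 6114 CPM in FL (mostly Ly6c2, at a mean of 1504 CPM in KO and 3843 CPM in FL; 2 of 5 tested were called lower and 2, Csf1r and Mrc1, higher), and T and NK cell markers to 1.39 to 2.92 CPM in KO and 0.50 to 0.95 CPM in FL. Leaving out KO replicates 2 and 3 does not remove these differences. KO replicates 1 and 4 keep eosinophil sums of 262 and 246 CPM, above the 114 CPM of the highest FL library. The mast cell and basophil sums and the monocyte and macrophage sums also separate every KO library from every FL library. Calls lost in that fit cannot be told apart from the effect of a smaller KO group. The part of these cell types in the results below was thus not tested.

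Ribosomal protein mRNAs were lower in KO L-GMP across both subunits. Of the 86 tested genes, 80 fell and 1, Rps4l, was called higher on few reads (edgeR quasi-likelihood test, Benjamini-Hochberg adjusted p under 0.05 over 17418 genes), where 14.9% of all genes tested fell and 13% rose. The groups did not overlap for 79 genes lower in KO, against 15.8% of all genes, and for 1 gene higher in KO, against 15.1%. The median log2 fold change was -1.23, with quartiles of -1.35 and -1.10, and the median of all genes tested was 0.05. In sorted bulk cells, less of these mRNAs in each cell cannot be told apart from fewer cells that carry them, and values are relative to the other mRNAs of the library.

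**Figure D1:**
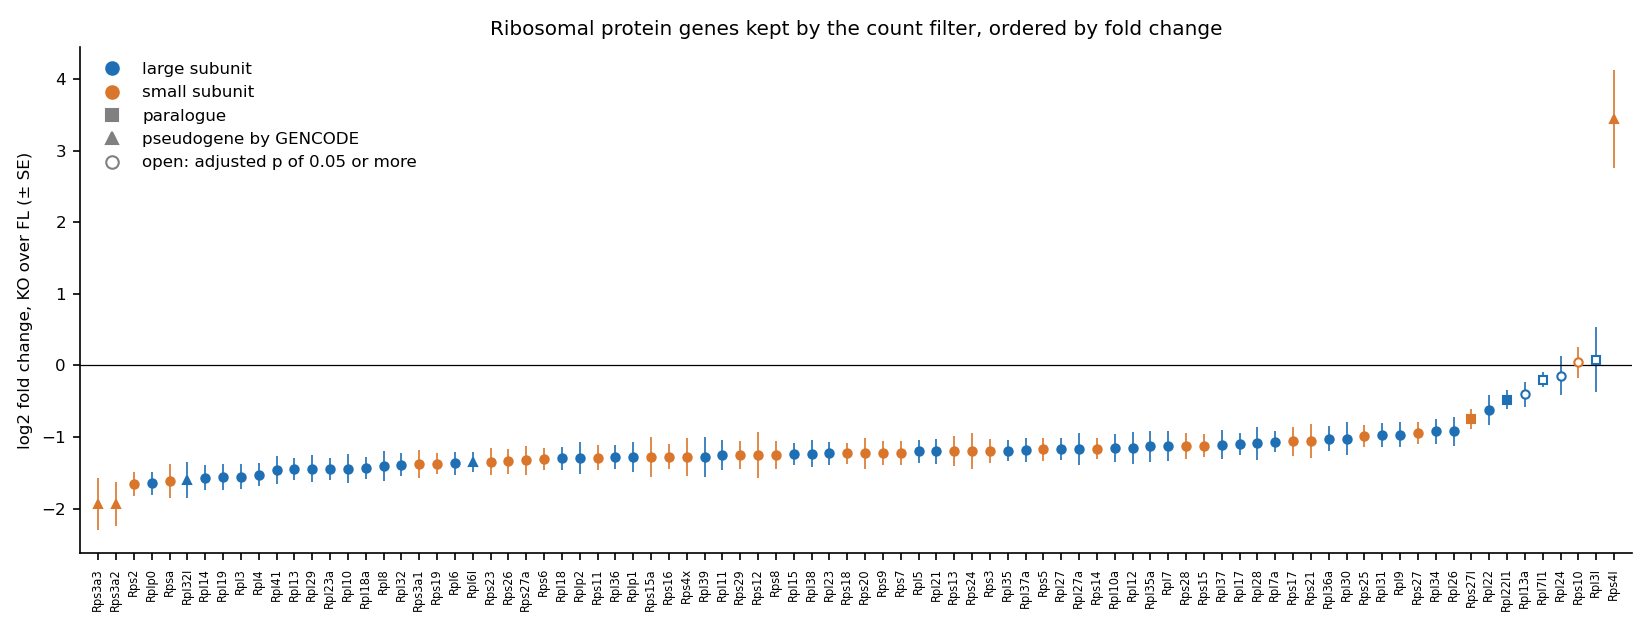
Log2 fold change, KO over FL, with its standard error, of the 86 ribosomal protein genes that passed the count filter, ordered along the horizontal axis. Colour marks the subunit, shape the class and open symbols an adjusted p of 0.05 or more; most points lie in a narrow band around -1.23. Rps4l, at the far right, passed the filter only through its reads in KO.

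Scaling shifted the fold changes of these genes and of all genes by a similar amount. With total counts in place of TMM factors, the median of all genes tested moved up by 0.59, to 0.64, and that of the ribosomal protein genes was -0.60. Then 72 of the 86 fell and 2 rose, against 5.09% and 51.7% of all genes. Relative to the median of all genes the ribosomal protein genes stood at -1.27 under TMM factors and at -1.24 under total counts. With library breadth (genes detected) as a covariate, 0 of the 86 passed by edgeR (median -0.85), and 98 of 17418 genes in all fell. Without KO replicates 2 and 3, the libraries with the most eosinophil transcripts, 65 fell and 0 rose (median -1.11), where 7.31% of all genes fell and 5.44% rose. The calls lost there were those of Rpl12, Rpl22, Rpl22l1, Rpl26, Rpl27a, Rpl28, Rpl30, Rpl34, Rpl35a, Rpl39, Rps12, Rps15a, Rps21, Rps24, Rps4l and Rps4x.

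As a share of all counts in the library, with no scaling, the 89 genes held 5.42, 4.87, 4.58 and 5.39% in KO and 7.35, 7.73, 8.94 and 9.26% in FL. The highest KO library lay below the lowest FL library, and the means were 5.06 ± 0.41% in KO and 8.32 ± 0.92% in FL (SD, n = 4 each). The large subunit genes held 2.67 to 3.12% in KO and 4.36 to 5.35% in FL, and the small subunit genes 1.91 to 2.30% in KO and 2.99 to 3.91% in FL.

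**Figure D2:**
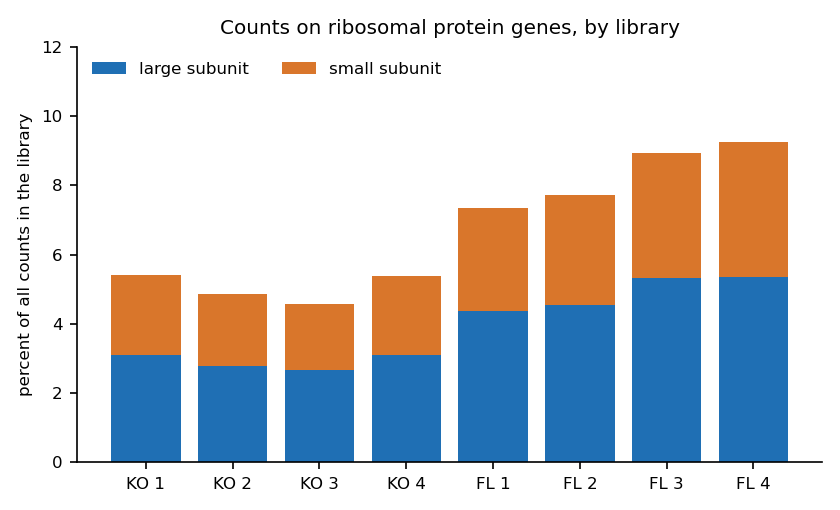
Percent of all counts in each library that fell on ribosomal protein genes, KO libraries on the left and FL libraries on the right, with large and small subunit genes stacked. All KO bars (4.58 to 5.42%) are shorter than all FL bars (7.35 to 9.26%).

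The subunits differed little. Of 51 large subunit genes 47 fell (median -1.20), and of 35 small subunit genes 33 fell and 1 (Rps4l) was called higher (median -1.23), so the medians were 0.03 apart. For core genes alone 44 of 46 large subunit genes fell (median -1.22) and 30 of 31 small subunit genes fell (median -1.23). The ratio of large to small subunit counts was 1.36, 1.34, 1.39 and 1.35 in KO and 1.46, 1.44, 1.49 and 1.37 in FL. KO replicate 3 and FL replicate 4 overlapped in that ratio, and the difference was not tested.

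The pyrimidine run at the start of the mRNA is the sequence through which translation of these transcripts is known to be controlled. Start sites are shown here for some core genes that fell and have a run of 5 or more, in capitals. Rplp0, Rps2, Rpl4 and Rpsa, which fell further than the core genes shown, have no such run over the annotated start. Below them stand 3 paralogues without a run of 5 or more, of which Rps27l and Rpl22l1 were also called lower. In Rpl7l1 the single pyrimidine at the start base is in capitals. RefSeq (GRCm38.p6) promoters were at hand for 64 of the 89 genes, 57 of them core. Each line gives 30 bases of the sense strand, 15 before the annotated start and 15 from it.
Rpl7a: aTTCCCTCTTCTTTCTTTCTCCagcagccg
Rpl15: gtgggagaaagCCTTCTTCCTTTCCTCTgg
Rps6: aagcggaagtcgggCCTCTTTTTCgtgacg
Rplp2: tgcgtcagcgTCTTCCTTTCgccgccggac
Rps27: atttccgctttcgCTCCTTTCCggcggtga
Rps27l: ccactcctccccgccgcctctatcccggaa
Rpl7l1: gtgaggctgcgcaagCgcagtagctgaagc
Rpl22l1: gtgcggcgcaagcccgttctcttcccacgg
They lie at chr2:26910792-26910821 (Rpl7a, plus strand), chr14:18270972-18271001 (Rpl15, minus), chr4:86857353-86857382 (Rps6, minus), chr7:141447636-141447665 (Rplp2, plus), chr3:90213634-90213663 (Rps27, minus), chr9:66946071-66946100 (Rps27l, plus), chr17:46782642-46782671 (Rpl7l1, minus) and chr3:28805493-28805522 (Rpl22l1, plus).

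A run of at least 5 pyrimidines that covered the annotated start base was found in 20 of 57 core genes (35.1%), against 11.8% of 27025 genes in the table. This count depends on the annotated base: in the Rps27l and Rpl22l1 windows pyrimidines stand next to the start base but not over it. Core genes with such a run had a median log2 fold change of -1.19, with 19 of 20 called lower, and those without had -1.23, with 35 of 37. The promoters, from 250 bases before to 50 after the start, were also searched on both strands for 3 motifs. The ETS type motif CCGGAAG was present in 42.1% of core genes and 9.93% of all genes, the YY1 type motif AAGATGG in 15.8% and 7.28%, and TATAAA in 10.5% and 15.7%. Median fold changes were -1.24 with and -1.19 without the ETS type motif, -1.13 with and -1.23 without the YY1 type motif, and -1.20 with and -1.22 without TATAAA. The bases before the start of Rps6 and of Rps27 show the first and the second of these in capitals.
Rps6: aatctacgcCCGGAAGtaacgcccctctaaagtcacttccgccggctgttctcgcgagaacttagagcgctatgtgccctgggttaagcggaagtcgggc
Rps27: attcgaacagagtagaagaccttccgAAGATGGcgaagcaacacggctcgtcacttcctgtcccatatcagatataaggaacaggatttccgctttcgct
These are 100 bases each, at chr4:86857368-86857467 and chr3:90213649-90213748, both on the minus strand.

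The stalk genes fell together. Rplp0, the core of the stalk that recruits elongation factors, had 2978, 2456, 2578 and 2797 CPM in KO and 7031, 7131, 9933 and 9755 CPM in FL. Every KO library was below every FL library, and the log2 fold change of -1.65 (SE 0.16, edgeR adjusted p = 9.1e-05) had the smallest p of any large subunit gene. Its acidic partner Rplp1 had 542, 471, 444 and 481 CPM in KO and 827, 906, 1263 and 1706 CPM in FL, a log2 fold change of -1.28 (SE 0.21, adjusted p = 0.0015). Rplp2, the other acidic partner, had 226, 193, 175 and 195 CPM in KO and 327, 393, 468 and 749 CPM in FL, a log2 fold change of -1.30 (SE 0.23, adjusted p = 0.0020). Neither acidic partner overlapped between groups, and for both FL replicate 4 was the highest library.

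Rps2 and Rpl4 lay next to Rplp0 in the strength of the call. Rps2, at the mRNA entry side of the small subunit, had 1081, 948, 1018 and 915 CPM in KO and 2495, 2577, 3895 and 3488 CPM in FL. Its log2 fold change of -1.65 (SE 0.17, adjusted p = 0.0001) was the largest fall of any called core gene. Rpl4, which lines the exit tunnel for the nascent peptide, had 2413, 1983, 2042 and 2194 CPM in KO and 5474, 4972, 7018 and 7391 CPM in FL, a log2 fold change of -1.53 (SE 0.16, adjusted p = 0.00013). In both genes the groups were far apart. Rpsa, a small subunit protein also known as a laminin receptor precursor, had 1225, 1013, 1116 and 1128 CPM in KO and 2347, 2632, 3382 and 5359 CPM in FL, a log2 fold change of -1.61 (SE 0.24, adjusted p = 0.00072). FL replicate 4 was the highest library of Rpsa by a wide margin.

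Rps6, the small subunit substrate of the S6 kinases downstream of mTOR, averaged 982 ± 69.4 CPM in KO and 2430 ± 496 CPM in FL (SD, n = 4 each). It had 1052, 940, 907 and 1029 CPM in KO and 2111, 1938, 2655 and 3017 CPM in FL, a log2 fold change of -1.31 (SE 0.16, adjusted p = 0.00024). The groups did not overlap. Rps19, the gene most often mutated in human Diamond-Blackfan anaemia, had 989, 892, 795 and 986 CPM in KO and 2084, 2000, 2755 and 2637 CPM in FL, a log2 fold change of -1.37 (SE 0.15, adjusted p = 0.00014). Rps14, whose haploinsufficiency impairs red cell formation in a human myelodysplastic syndrome, had 753, 664, 588 and 777 CPM in KO and 1314, 1385, 1720 and 1805 CPM in FL, a log2 fold change of -1.16 (SE 0.15, adjusted p = 0.00034). Rpl35a, another gene of human Diamond-Blackfan anaemia, had 226, 206, 200 and 227 CPM in KO and 340, 363, 441 and 732 CPM in FL, a log2 fold change of -1.13 (SE 0.22, adjusted p = 0.0034; 0.052 without KO replicates 2 and 3). All KO libraries were below all FL libraries for these genes.

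Rpl5 and Rpl11 carry the smallest ribosomal RNA into the large subunit and, outside the ribosome, bind and inhibit MDM2, the ligase that degrades p53. Rpl5 had 914, 815, 798 and 946 CPM in KO and 1744, 1627, 2028 and 2582 CPM in FL, a log2 fold change of -1.20 (SE 0.16, adjusted p = 0.00041). Rpl11 had 460, 389, 389 and 459 CPM in KO and 723, 807, 1038 and 1479 CPM in FL, a log2 fold change of -1.25 (SE 0.21, adjusted p = 0.0015). Both genes separated the groups. Of 13 tested genes of the p53 response, 7 fell (53.8%) and 2 rose (15.4%) under TMM scaling, against 14.9% and 13% of all genes. Under total counts 1 fell (7.69%) and 4 rose (30.8%), against 5.09% and 51.7% of all genes. Bax, a pro-apoptotic p53 target, had 40.6, 41.1, 43.5 and 41.5 CPM in KO and 62.7, 67.6, 96.9 and 62.6 CPM in FL (log2 fold change -0.80, adjusted p = 0.0025), and Trp53inp1, another target, had 14.6, 18.8, 11.1 and 25.1 CPM in KO and 8.39, 8.16, 7.61 and 10.3 CPM in FL (1.02, adjusted p = 0.0083). The targets thus did not all move in one direction, and under TMM scaling more of them fell than rose. Bax had an edgeR adjusted p of 0.31 under total counts.

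The genes moved together over libraries. Within KO the median coefficient of variation over core genes was 9.63%, and within FL it was 25.8%. KO replicate 1 was the highest KO library for 54 of the 77 core genes, and FL replicate 4 was the highest FL library for 66. FL replicate 4 exceeded the mean of the other FL libraries by a median of 1.52-fold (1.01 to 2.73-fold) in TMM-scaled CPM. Its TMM factor was the lowest (0.68, against 0.79 to 0.91 in the other FL libraries), which raises its scaled values. Unscaled, the 89 genes held 7.35, 7.73 and 8.94% of counts in the other FL libraries and 9.26% in FL replicate 4. That library also had the highest share of mitochondrial counts (5.69%, against 2.26 to 2.54% in KO and 3.70 to 3.94% in the other FL libraries) and of the ribosomal RNA type transcript CT010467.1 (9.39%, against at most 3.39% in KO and 2.43 to 4.41% in the other FL libraries), and the part of these in the result was not tested. Without FL replicate 4 the median of the 86 genes was -1.05 and 79 fell.

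**Figure D3:**
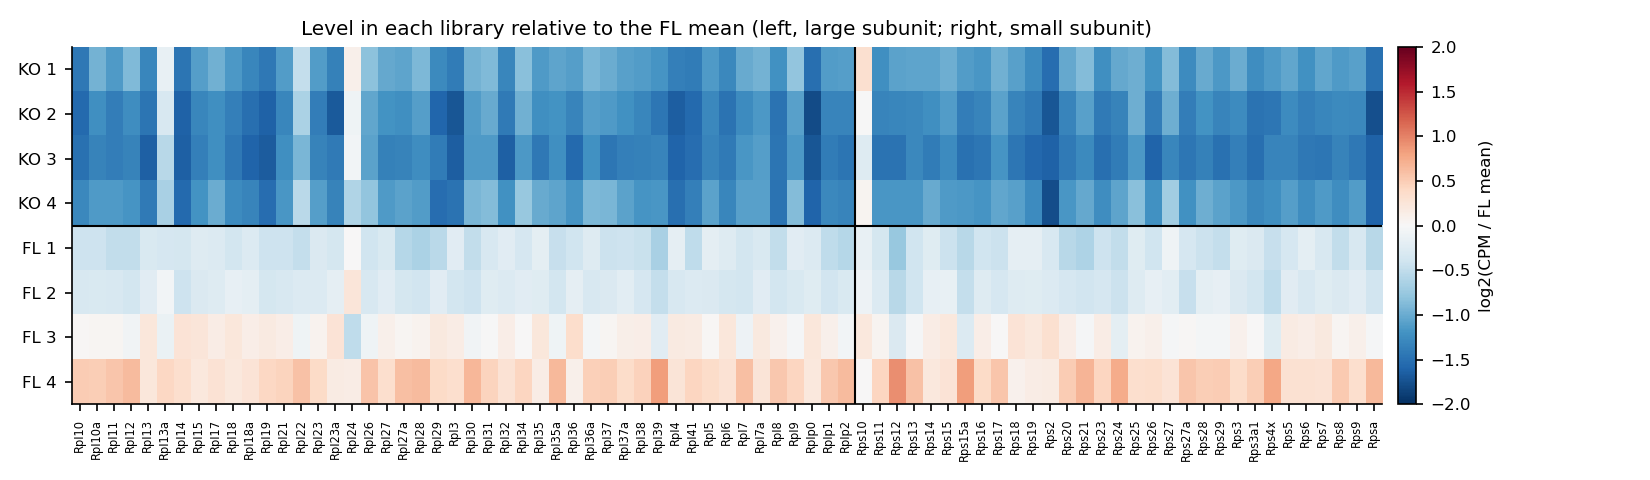
Level of each of the 77 core genes (columns, large subunit left of the vertical line) in each library (rows, KO above the horizontal line and FL below it), as log2 of CPM over the FL mean. Nearly all genes are blue in the 4 KO libraries, FL replicate 4 is red for most genes, and Rpl13a, Rpl24 and Rps10 are paler than the rest.

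Levels between genes were compared per kilobase of annotated exons. The exons of all annotated transcripts of a gene were joined (499 bases for Rplp1, 6270 for Rps15a), so the ranking depends on the annotation as well as on the level. On that scale the highest core gene in FL was Rplp0, at 1629 ± 140 CPM per kilobase in KO and 5101 ± 963 in FL, followed by Rpl4 (1075 ± 95.7 in KO and 3096 ± 584 in FL) and Rps3a1 (994 ± 90.7 in KO and 2581 ± 754 in FL). The last pair differed by less than their SD in FL. At the low end stood Rpl22 (46.9 ± 5.97 in KO and 72.4 ± 25.4 in FL), Rpl13a (8.79 ± 1.41 in KO and 11.6 ± 2.66 in FL), Rpl24 (1.50 ± 0.29 in KO and 1.65 ± 0.35 in FL) and Rps10 (1.08 ± 0.18 in KO and 1.05 ± 0.12 in FL). Across the 77 core genes the log2 fold change and the log2 mean CPM had a Pearson r of -0.82 (Spearman rho -0.64), and over the 74 called ones r was -0.57. The genes share the same 8 libraries and the level enters the fold change, so this is a description.

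Other abundant genes were also lower in KO. Of 1788 other genes with a mean of 100 CPM or more, 51.6% fell (median -0.41), against 74 of 75 ribosomal protein genes (median -1.23). Between 100 and 300 CPM 42.8% of 1357 other genes fell (median -0.31), against 9 of 10 (median -1.09). Between 300 and 1000 CPM 76.7% of 330 other genes fell (median -0.70), against 41 of 41 (median -1.19). At 1000 CPM or more 88.1% of 101 other genes fell (median -1.19), against 24 of 24 ribosomal protein genes (median -1.37). The distance between the medians was thus widest between 100 and 300 CPM and narrowest among the most abundant genes. Under total counts 11.7% of the other genes of 100 CPM or more fell and 30.4% rose, with their median at 0.19, and that of the 75 ribosomal protein genes was -0.60.

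**Figure D4:**
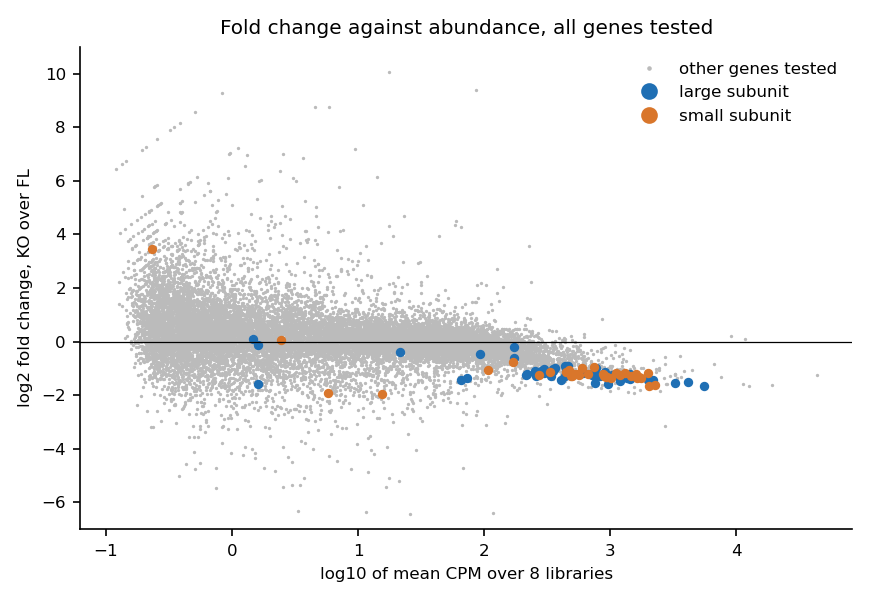
Log2 fold change, KO over FL, against log10 of the mean CPM over 8 libraries for 17418 genes tested (grey), with large subunit genes in blue and small subunit genes in orange. The ribosomal protein genes lie mostly below 0 among the abundant genes, and most grey points at the far right also lie below 0.

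A handful of core genes stood apart. Rpl22, a large subunit protein that binds RNA and is needed for lymphocyte development in mice, had 152, 137, 112 and 145 CPM in KO and 152, 175, 199 and 318 CPM in FL. KO replicate 1 was a little above FL replicate 1, so the groups overlapped, and the fall was 0.63 on the log2 scale (SE 0.21, adjusted p = 0.046). This was the smallest fall of any called core gene. It was lost in 13 of 19 alternatives, with adjusted p from 0.00029 to 0.97, and under total counts its log2 fold change was 0.01.

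The 3 core genes that were not called were all low. Rpl13a, in mammals also part of a complex that silences inflammatory mRNAs, had 22.3, 19.6, 16.8 and 15.6 CPM in KO and 19.5, 23.7, 22.5 and 32.6 CPM in FL, a log2 fold change of -0.40 (SE 0.18, adjusted p = 0.12). Rpl24, near the interface of the subunits, had 1.82, 1.59, 1.63 and 1.12 CPM in KO and 1.71, 2.02, 1.19 and 1.88 CPM in FL, a log2 fold change of -0.14 (SE 0.27, adjusted p = 0.73). Rps10, a further gene of human Diamond-Blackfan anaemia, had 3.05, 2.42, 2.04 and 2.51 CPM in KO and 2.20, 2.27, 2.80 and 2.45 CPM in FL, a log2 fold change of 0.05 (SE 0.22, adjusted p = 0.90). The groups overlapped in all 3. By GENCODE M21, 35.4% of the exonic bases of Rpl13a, 47.0% of Rpl24 and 20.6% of Rps10 lie under exons of another gene on the same strand. For Rpl24 and Rpl13a that gene was Gm28037 and Gm45713, each with 0 counts in every library. The processed copies Rps10-ps1 and Rps10-ps2 had more counts than Rps10, at 31.5 ± 3.48 CPM in KO and 90.4 ± 28.8 CPM in FL for Rps10-ps2, which fell (log2 fold change -1.52, adjusted p = 0.00039). Under total counts Rps10 was called higher in KO (0.64, adjusted p = 0.043). How reads in shared exons or copies were assigned was not stated, so the levels of Rpl13a, Rpl24 and Rps10 are uncertain.

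Many ribosomal protein genes have processed copies in the genome. Of 145 tested pseudogenes with a -ps symbol, 108 fell (74.5%) and 0 rose (median -1.42), where 14.9% of all genes fell and 13% rose. Under total counts 76 fell (52.41%) and 0 rose (median -0.79), against 5.09% and 51.7% of all genes. The 14 core genes that shared under 10% of their 50-base words with other transcripts all fell, with a median of -1.19, and of the 20 that shared 30% or more 19 fell, with a median of -1.29. Among the members, Rps3a3, a processed pseudogene related to Rps3a1, had 7.86, 5.85, 5.36 and 6.48 CPM in KO and 17.4, 15.6, 15.7 and 49.3 CPM in FL (log2 fold change -1.94, SE 0.36, adjusted p = 0.0030). Rpl6l, a processed pseudogene of Rpl6 with 76.4% shared words, had 42.3, 41.7, 39.0 and 42.6 CPM in KO and 88.8, 85.6, 120 and 129 CPM in FL (log2 fold change -1.35, SE 0.14, adjusted p = 0.00014). Both separated the groups, and reads of such copies and of their parent genes cannot be told apart here.

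The single call of a higher level in KO was Rps4l. GENCODE lists it as a transcribed processed pseudogene related to Rps4x, and it had 0.19, 0.48, 0.61 and 0.42 CPM in KO and 0.04, 0.05, 0 and 0.05 CPM in FL. Its level rested on 89 reads in all libraries together. By library these were 10, 22, 25 and 26 reads in KO and 2, 2, 0 and 2 reads in FL. Rps4l passed the filter on low counts only through the KO libraries, so its call and its fold change carry no weight, and they are not read as a rise. It was not called with the genes detected as a covariate or without KO replicates 2 and 3, and the stricter filter removed it.

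The paralogues of core genes were compared with their main gene within each library, where library size cancels. Pairs with at least 10 counts for the paralogue numbered 7; for 4 against 4 libraries the smallest two-sided exact permutation p is 0.0286, and pairs that reached it had an adjusted p of 0.05, which is not under the threshold. The pairs of Rpl39l and Rps4l passed the read minimum only through KO, so their reads are given and their p is not read. Both were among the 7 pairs of the adjustment and also reached 0.0286. The adjusted p of 0.05 given for Rpl7l1 and Rpl36al thus depends on them, and it was not computed without them. Rpl7l1, a nucleolar relative of Rpl7, had 161, 170, 162 and 156 CPM in KO and 209, 186, 188 and 160 CPM in FL (log2 fold change -0.20, SE 0.11, adjusted p = 0.20), while Rpl7 had 618, 521, 555 and 585 CPM in KO and 969, 964, 1160 and 1879 CPM in FL (-1.12, SE 0.21, adjusted p = 0.0025). Rpl7l1 counts were 26.1, 32.6, 29.1 and 26.6% of Rpl7 counts in KO and 21.6, 19.3, 16.2 and 8.54% in FL. The log2 ratio was 0.88 higher in KO (exact permutation p = 0.0286, adjusted p = 0.05), with no overlap.

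Rpl36al, an autosomal intronless relative of the X-linked Rpl36a, had 10.4, 9.48, 8.47 and 10.5 CPM in KO and 9.86, 9.31, 9.94 and 9.17 CPM in FL (log2 fold change 0.02, adjusted p = 0.91). Rpl36a had 253, 223, 206 and 255 CPM in KO and 397, 383, 463 and 664 CPM in FL (-1.02, SE 0.18, adjusted p = 0.0018). The paralogue stood at 4.10 to 4.25% of its main gene in KO and at 1.38 to 2.48% in FL, a log2 ratio 1.01 higher in KO (exact permutation p = 0.0286, adjusted p = 0.05). By GENCODE, 24.5% of the exonic bases of Rpl36al lie under Gm49383 on the same strand.

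For Rps27l and Rpl22l1 the groups overlapped in the ratio. Rps27l, a p53-inducible relative of Rps27, had 131, 128, 124 and 121 CPM in KO and 167, 186, 271 and 223 CPM in FL (log2 fold change -0.75, SE 0.15, adjusted p = 0.0036), and Rps27, a zinc finger protein of the small subunit, had 545, 503, 400 and 613 CPM in KO and 930, 855, 977 and 1194 CPM in FL (-0.94, SE 0.16, adjusted p = 0.0015). Both fell, and the log2 ratio was 0.22 higher in KO (exact permutation p = 0.286). Rpl22l1, which replaces Rpl22 in mouse cells that lack it, had 83.1, 70.9, 77.7 and 77.5 CPM in KO and 94.4, 94.0, 108 and 134 CPM in FL (-0.48, SE 0.13, adjusted p = 0.019). Rpl22l1 over Rpl22 differed by 0.11 between groups (exact permutation p = 0.486). Under total counts neither paralogue was called, with log2 fold changes of -0.14 for Rps27l and 0.13 for Rpl22l1.

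The tissue-restricted paralogues were near 0. Rpl3l, the striated muscle relative of Rpl3, had 1.50, 1.03, 0.56 and 2.88 CPM in KO and 1.31, 2.09, 1.07 and 1.23 CPM in FL (log2 fold change 0.08, SE 0.45, adjusted p = 0.91), while Rpl3 had 1875, 1503, 1583 and 1770 CPM in KO and 4202, 3829, 5458 and 6254 CPM in FL (-1.55, SE 0.17, adjusted p = 0.00017). The ratio overlapped between groups (difference 1.40, exact permutation p = 0.0571, adjusted p = 0.08). Rpl39l, a testis relative of Rpl39, had 6 reads in KO replicate 1, 46 in KO replicate 3 and 0 in the other 6 libraries, where the added count of 0.5 and the level of Rpl39 alone set the ratio. Rpl10l, a testis relative of Rpl10, had 4 reads in all. Rpl39 had 161, 135, 147 and 163 CPM in KO and 235, 263, 314 and 656 CPM in FL (-1.27, SE 0.28, adjusted p = 0.0071), and Rpl10, a late-joining protein of the large subunit, had 1086, 992, 1039 and 1194 CPM in KO and 2205, 2333, 2986 and 4168 CPM in FL (-1.44, SE 0.20, adjusted p = 0.00049). Rps4x, the main gene of Rps4l, had 942, 763, 827 and 885 CPM in KO and 1508, 1461, 1753 and 3553 CPM in FL (-1.28, SE 0.26, adjusted p = 0.0048). Without KO replicates 2 and 3 the calls of Rpl39 and Rps4x were lost (adjusted p = 0.079 for Rpl39 and 0.065 for Rps4x).

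**Figure D5:**
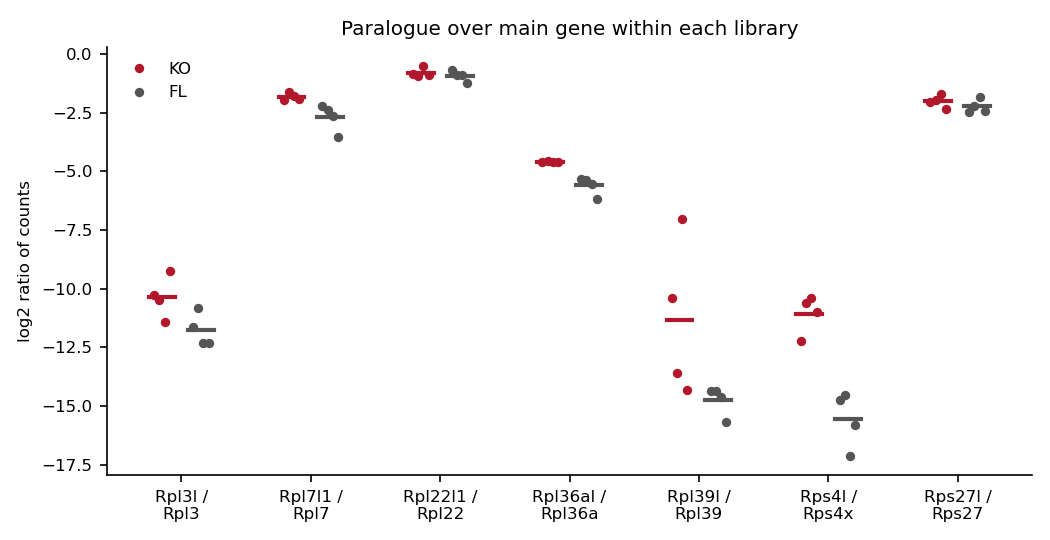
Log2 ratio of paralogue to main gene counts (0.5 added to each) in every library for 7 pairs, KO in red left of FL in grey, with bars at the group means. The groups are apart for Rpl7l1 and Rpl36al and overlap for Rpl3l, Rpl22l1 and Rps27l. The points of Rpl39l are set by the added 0.5 in 6 libraries and those of Rps4l in FL by 6 reads, and neither is read as a difference.

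Rack1 and Fau encode ribosomal proteins under symbols outside the pattern, and both fell. Rack1, a signalling scaffold on the small subunit, had 696, 557, 574 and 568 CPM in KO and 1088, 1158, 1390 and 1892 CPM in FL (log2 fold change -1.21, SE 0.18, adjusted p = 0.00078). Fau, which encodes a small subunit protein fused to a ubiquitin-like protein, had 486, 458, 431 and 531 CPM in KO and 841, 980, 1313 and 1659 CPM in FL (-1.33, SE 0.20, adjusted p = 0.00081). Rack1 and Fau both separated the groups, and 29.97% of the 50-base words of Fau were shared with Gm9843.

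Translation factors with TOP mRNAs also fell, 18 of 18 under TMM scaling (median -0.90) and 8 of 18 under total counts. Of all genes 14.9% and 5.09% fell. Abundant genes outside the ribosomal protein genes fell widely as well. Under TMM scaling 76.7% of those of 300 to 1000 CPM fell (median -0.70), and 88.1% of those of 1000 CPM or more (median -1.19). Under total counts these shares were 24.85% and 74.26%. The fall of the translation factors is thus not particular to them. Eef1a1, which delivers aminoacyl-tRNA to the ribosome, averaged 5755 ± 486 CPM in KO and 17060 ± 5021 CPM in FL (SD, n = 4 each; log2 fold change -1.57, SE 0.20, adjusted p = 0.00035). Btf3 (-1.27), a subunit of the nascent polypeptide complex, Eef1g (-1.18), a subunit of the exchange factor of Eef1a1, and Eif3h (-0.99), a subunit of an initiation factor, were called as well. Of 7 tested snoRNA host transcripts with TOP starts 0 fell and 0 rose by edgeR under TMM scaling (median 0.04). Under total counts 6 rose (85.7%), where 51.7% of all genes rose. Of 82 mitochondrial ribosomal protein genes 23 fell (28.0%) and 1 rose under TMM scaling (median -0.27), where 14.9% of all genes fell and 13% rose. Under total counts 0 fell and 28 rose (34%, median 0.32), below the 51.7% of all genes that rose (median 0.64). Relative to the median of all genes they stood at -0.31 under both scalings.

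Of 21 tested chaperones and assembly factors 5 fell (23.8%) and 0 rose (median -0.34), where 14.9% of all genes fell and 13% rose. Under total counts 0 fell and 6 rose (28.6%), below the 51.7% of all genes that rose. Those that fell under TMM scaling included Eif6 (-0.88, edgeR adjusted p = 0.0016), which keeps the subunits apart. Pes1 (-0.73, adjusted p = 0.0020) and Bop1 (-0.63, adjusted p = 0.0034), partners in large subunit rRNA processing, fell as well. Of 15 genes of RNA polymerase I transcription, 1 fell and 1 rose, or 6.67% each, below the shares of all genes (14.9% and 13%). Ubtf, the factor that opens the rRNA genes, fell with overlapping groups (-0.63, adjusted p = 0.012), and Znrd1, a polymerase subunit, rose (0.40, adjusted p = 0.013), while 0 fell and 8 rose under total counts, where 51.7% of all genes rose. Of 18 regulators 2 fell (11.1%) and 1 rose (5.56%), again below the shares of all genes. They were the mTOR effector Eif4ebp1 (-0.71, adjusted p = 0.020) and the mTOR activator Rheb (-0.32, adjusted p = 0.033), and Max, the partner of MYC, which was higher (0.72, adjusted p = 0.049). The groups overlapped for Max, and its call was lost in 11 of 19 alternatives (adjusted p 0.0011 to 0.78). Rheb turned to 0.27 under total counts, where 0 of the 18 fell and 13 rose (72.2%, against 51.7% of all genes).

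The genes whose log2 CPM over the 8 libraries was most like the mean of the core genes, among 9233 ranked, were Psme1 (Pearson r 0.997), Naca (0.996), Fau (0.996), Psmb8 (0.994) and Rpl37rt (0.994). Naca binds nascent peptides, and Psme1 and Psmb8 encode proteasome components. Psme1 averaged 245 ± 14.7 CPM in KO and 385 ± 56.8 CPM in FL, and Psmb8 255 ± 9.30 CPM in KO and 555 ± 108 CPM in FL (SD, n = 4 each).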

How the data were processed

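Per the labels' protocols, RNA was extracted with a miRNeasy kit, amplified by the Geo-seq method and made into libraries with a TruePrep kit; no molecular identifiers are described, so amplified copies count as reads. The authors deposited a table of raw counts, 1 column per library. Its sheet name names featureCounts, whereas mm10, DESeq2, HTSeq 0.13.5 and Bowtie 0.12.9 appear in the submitters' processing notes without a role; the counter, its strand setting and its handling of shared reads are not given in the sources used. Columns headed Ko were matched to KO and those headed WT to FL by the sample titles.

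Counts were tested in edgeR 4.0.16 under R 4.3.3 (filterByExpr, TMM factors, quasi-likelihood F test, no covariate, Benjamini-Hochberg over 17418 genes, threshold 0.05) and the steps were tested on simulated data. SE is the log2 fold change over the square root of F. Paralogue ratios, with 0.5 added to each count, were tested by exact permutation over libraries, two-sided, adjusted over 7 pairs, those of Rpl39l and Rps4l included. Alternatives used DESeq2 1.42.0, limma 3.58.1, other scalings and filters, and libraries left out. Exons, overlaps and 50-base words came from GENCODE M21, and promoters from RefSeq GRCm38.p6. No library was a copy of another, since chi-square per degree of freedom within a group was at least 21.2.

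The members and lists were chosen with earlier results of these data known. Genes named are the 3 smallest p values per subunit, stalk, 5S RNA-binding and anaemia genes, Rps6, Rpsa, paralogue pairs, members called higher or not called, and the largest and smallest falls. After values were seen, genes of other lists were narrowed to called ones (up to 4 a list), levels above 100 CPM were split further and predicted symbols were left out of the likeness ranking. One gene of the lists is not reported here.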

Additional observations from a re-analysis of the deposited data

Results flagged for a closer look

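Single libraries stood apart for 9 of 132 sets of 4 libraries examined, by Dixon's ratio of the gap to the nearest library over the range; chance gives about 1 in 20. Among ribosomal protein genes, Rpl39l had 1.12 CPM in KO replicate 3 and at most 0.11 CPM in the other KO libraries. Rps4x had 3553 CPM in FL replicate 4, and Rps3a3 had 49.3 CPM in the same library, against 17.4 CPM or less in the other FL libraries. Rps4l had 0 CPM in FL replicate 3, against 0.04 to 0.05 CPM in the others. Rack1 had 696 CPM and Rpf2 62.5 CPM in KO replicate 1. In FL, Znrd1 had 26.6 CPM in replicate 2, and Bax had 96.9 CPM and Ccng1 110.6 CPM in replicate 3.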

How the results depend on the processing

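Of the 81 calls among the ribosomal protein genes, 81 kept the call with DESeq2, RLE factors, TMM factors set without these genes, or no filter. Another 80 were kept with limma-voom, upper-quartile factors or the replicate block, 78 with the stricter filter of 5 CPM in 4 libraries, 73 under total-count scaling, 65 without KO replicates 2 and 3, and 0 with the genes detected as a covariate, which followed the groups. The number called lower was 0 with that covariate and 78 to 80 with single libraries left out. The number called higher was 2 under total-count scaling and with no filter, 0 with the stricter filter, the covariate or without KO replicates 2 and 3, and 1 with single libraries left out. The median log2 fold change was -0.60 under total-count scaling, -0.85 with the covariate, and -1.33 to -1.05 with single libraries left out. The large minus small subunit median was -0.00576 with the replicate block, -0.020 with the covariate, -3.31e-05 without KO replicates 2 and 3, and -0.020 to 0.069 with single libraries left out. Abundant other genes called lower made up 11.7% under total-count scaling, 1.06% with the covariate and 26.6% without KO replicates 2 and 3, against 40.6 to 52.0% with single libraries left out. Under total-count scaling log2 fold changes turned to 0.38 for Rpl7l1, 0.00732 for Rpl22, 0.13 for Rpl22l1, 0.21 for Rpl13a, 0.44 for Rpl24, 0.27 for Rheb and 0.0436 for Rpf2. Rpl3l turned to -0.33 with limma-voom, -0.11 with the replicate block and ranged from -0.47 without KO replicate 4 to 0.35 without KO replicate 3, with -0.05 without FL replicate 3. Rpl36al turned to -0.0124 with no filter and ranged from -0.0301 to 0.0836 with single libraries left out, Rps10 turned to -0.0686 without KO replicate 1 and -0.01 without FL replicate 1, and Max to -0.35 with the covariate. The cause was not tested. Equal replicate numbers in KO and FL did not pair the libraries (correlations of deviations -0.020 to 0.057), and the replicate block gave 79 lower and 1 higher. Reads without molecular identifiers limit what depth says about molecules, and genes near 1 CPM such as Rpl24, Rpl3l and Rps4l rest on few of them.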
